A study of Mus musculus with 15 samples.

Results

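Interferon-stimulated antiviral genes were followed across 5 groups of mouse bone marrow cells. The 41 genes asked for were chosen by symbol from the interferon response. Of these, 39 were rows of the gene table, which held 17030 genes, and 38 were among the 11793 genes tested. Mx1 and Mx2, the Mx GTPases, were not analysed here, and the chemokine gene Cxcl9 was too low to be tested. Messenger RNA was sequenced from 15 libraries, 3 in each group. Macrophages of the CAR group carried the genotype label CAR expression and the treatment label CAR treated. A chimeric antigen receptor (CAR) is an artificial surface protein that binds a chosen antigen and signals into the immune cell that carries it. Their comparator, the control-CAR macrophages, had the labels Control-CAR expression and Control-CAR treated. Hoxb8 macrophages, BMDM (bone marrow-derived macrophages) and progenitor cells were all labelled WT and untreated. Hoxb8 is a homeobox factor whose forced expression is widely used to keep myeloid progenitors dividing in culture. All groups were labelled as primary cells from bone marrow, and the labels give neither the antigen, the vector, the strain, the age of the animals nor the time in culture. Whether replicate libraries stem from separate animals or cultures is not labelled, so each p-value reflects variation among these libraries alone, which may be technical.

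Type I interferon binds the receptor pair IFNAR1 and IFNAR2 and, through JAK kinases, activates a transcription factor complex that includes IRF9 and binds interferon-stimulated response elements in promoters. Type II interferon acts through gamma-activated sites. The induced genes include sensors of foreign nucleic acid, enzymes that degrade or block viral RNA, the ubiquitin-like modifier ISG15 and chemokines that attract T cells, and macrophages keep many of them at a low level without infection.

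Library totals ran from 16962839 to 19221681 estimated counts, of which the 39 genes took 0.387% to 0.390% in the CAR libraries and at most 0.217% in any other library. The macrophage label was checked against 7 marker genes. Their summed level was 2444 to 2509 FPKM in CAR libraries, 7175 to 7779 in control-CAR libraries, 7449 to 8163 in Hoxb8 macrophage libraries, 9640 to 10575 in BMDM libraries and 186 to 204 in progenitor libraries (FPKM is reads scaled to transcript length and library total). By group mean, 6 of the 7 reached 1 FPKM in control-CAR and in Hoxb8 macrophage libraries, 7 in BMDM libraries and 3 in progenitor libraries. In the CAR libraries 6 of the 7 reached 1 FPKM as well, and Mertk did not. The macrophage marker sum there lay below that of the mast cell and basophil markers given next. The name CAR macrophages is kept from the label and does not rest on these markers. Of 8 marker genes of mast cells and basophils, 7 reached 1 FPKM in CAR libraries, and their sum was 2971 to 3187 FPKM there. It was 49.1 to 69.2 FPKM in control-CAR libraries (4 of 8 at 1 FPKM, Mcpt4 at 0), 35.7 to 55.6 in Hoxb8 macrophage libraries, 154 to 186 in BMDM libraries and 1347 to 1457 in progenitor libraries, where 4 of 8, Cma1, Fcer1a, Tpsb2 and Mcpt4, were at 0. The 8 progenitor markers summed to 161 to 175 FPKM in CAR libraries, 13.4 to 15.5 in control-CAR libraries, 12.4 to 15.2 in Hoxb8 macrophage libraries, 155 to 274 in BMDM libraries and 2871 to 2926 in progenitor libraries. In BMDM libraries the 5 B cell markers summed to 29.9 to 54.2 FPKM, against at most 0.37 FPKM in any other library. The 7 neutrophil markers summed to 197 to 234 FPKM in CAR libraries, 1712 to 2105 in control-CAR libraries, 1235 to 1481 in Hoxb8 macrophage libraries, 4778 to 11221 in BMDM libraries and 13.1 to 13.7 in progenitor libraries. The 7 fibroblast markers summed to 51.7 to 53.1 FPKM in CAR libraries, against 16.2 to 19.1 FPKM in control-CAR libraries, where Sparc was at 0. In all these bulk samples, fewer cells of a type and less RNA per cell cannot be told apart.

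The antiviral genes were highest in CAR macrophages and lowest in progenitor cells. Summed over the 39 genes, the level was 2036, 2059 and 2081 FPKM in the CAR libraries, 898, 952 and 921 FPKM in the control-CAR libraries, 993, 985 and 920 FPKM in the Hoxb8 macrophage libraries, 1014, 1088 and 1125 FPKM in the BMDM libraries and 330, 333 and 329 FPKM in the progenitor libraries. The control-CAR and Hoxb8 macrophage sums overlapped, and the other groups stood apart from each other. Of the 39 genes, 38 to 39 reached 1 FPKM in CAR libraries, 32 to 34 in control-CAR libraries, 32 in Hoxb8 macrophage libraries, 37 in BMDM libraries and 25 to 26 in progenitor libraries.

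**Figure D1:**
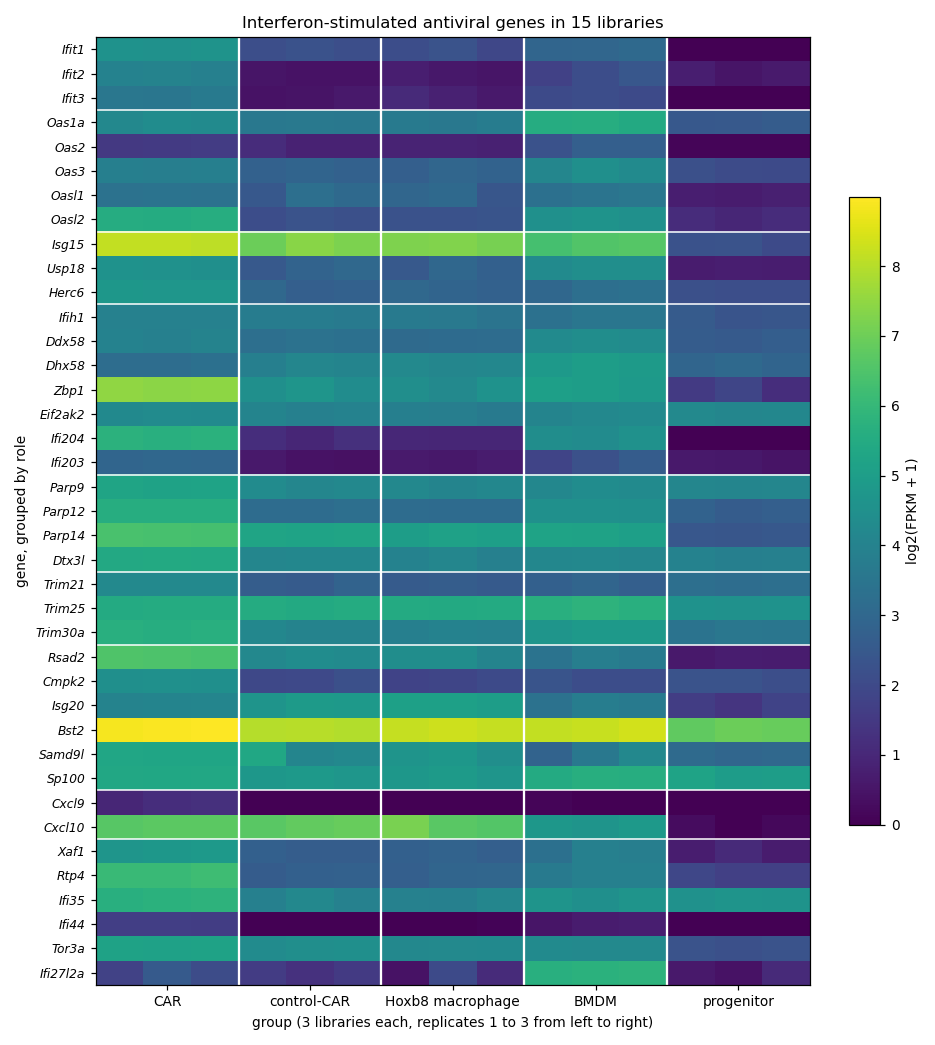
Level of each of the 39 antiviral genes (rows, grouped by role) in each of the 15 libraries (columns, 3 per group), as log2(FPKM + 1) on the colour scale. Bst2 and Isg15 are the brightest rows, the CAR columns are brighter than the control-CAR columns for most rows, and Oas1a and Ifi27l2a are brightest in BMDM.

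CAR had the highest group mean FPKM for 27 of the 38 tested genes, and for 25 of them its 3 libraries lay above every other library. Among all tested genes 14.8% met the second condition. The 25 include Ifi44, which was tested only because its CAR libraries reached 1 FPKM. The BMDM mean was highest for 9 genes, which were Oas1a, Oas2, Oas3, Oasl1, Ddx58, Dhx58, Trim25, Sp100 and Ifi27l2a, and for 8 of them without overlap, against 10.6% of all tested genes. Isg20 and Cxcl10 had their highest mean in Hoxb8 macrophages, Isg20 without overlap, against 1.72% of all tested genes. The Cxcl10 levels of the Hoxb8 macrophage libraries overlapped with those of the control-CAR and CAR libraries. Progenitor cells had the lowest mean for 31 of the 38, in 26 without overlap, against 20.0% of all tested genes.

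Bst2, which encodes tetherin, a membrane protein that holds budding virus at the cell surface, had the highest level per length of the 39 genes in every group. Its level was 460, 488 and 506 FPKM in CAR, 252, 260 and 249 in control-CAR, 296, 314 and 294 in Hoxb8 macrophage, 286, 296 and 334 in BMDM and 111, 123 and 117 FPKM in progenitor libraries. The Hoxb8 macrophage and BMDM libraries overlapped, and the other neighbours in order of level did not. Eif2ak2, which encodes PKR, a kinase that stops translation on double-stranded RNA, had group means between 13.1 and 18.8 FPKM in all 5 groups. The ratio of its highest to its lowest group mean, 1.44, was the smallest of the 39 genes, and its BMDM libraries overlapped with both the CAR and the progenitor libraries.

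Promoters were searched for 2 motifs. The first was the core of the interferon-stimulated response element, spelled GAAA, any 2 bases, then GAAA. The second was the core of the gamma-activated site, spelled TTC, any 3 bases, then GAA. RefSeq promoter windows of build GRCm38.p6, 250 bases before to 50 bases after a start site, were found for 29 of the 39 genes. Both strands were read. The response element core was present for 14 of the 29 genes (48.3%), while 3.44% of the 32851 windows in the RefSeq table, or 3.99% of its 27025 genes, held it. The gamma-activated core was present for 6 of the 29 genes (20.7%), while 8.3% of all windows and 9.55% of genes held it. Of the 7 windows below, 1 was taken per role class as the gene with the response element core that differed most between CAR and control-CAR, and the capitals mark matches to that core on either strand, overlapping ones joined.
Ifit3: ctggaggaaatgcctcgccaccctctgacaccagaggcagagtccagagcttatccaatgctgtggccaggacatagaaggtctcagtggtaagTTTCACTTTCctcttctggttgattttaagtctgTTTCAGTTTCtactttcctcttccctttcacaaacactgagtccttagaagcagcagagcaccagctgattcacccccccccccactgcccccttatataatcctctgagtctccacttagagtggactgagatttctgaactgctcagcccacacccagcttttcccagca
Oas3: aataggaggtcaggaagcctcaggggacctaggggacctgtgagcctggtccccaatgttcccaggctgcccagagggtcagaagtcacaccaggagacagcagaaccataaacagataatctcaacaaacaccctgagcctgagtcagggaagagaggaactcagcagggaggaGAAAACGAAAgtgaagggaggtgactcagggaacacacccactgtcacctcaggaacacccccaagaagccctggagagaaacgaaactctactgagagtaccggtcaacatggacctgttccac
Isg15: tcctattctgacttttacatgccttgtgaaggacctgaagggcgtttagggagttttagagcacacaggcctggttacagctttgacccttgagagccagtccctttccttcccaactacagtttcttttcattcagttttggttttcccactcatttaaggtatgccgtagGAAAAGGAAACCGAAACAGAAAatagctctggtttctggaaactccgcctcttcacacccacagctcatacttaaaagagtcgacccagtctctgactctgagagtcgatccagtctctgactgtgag
Ifi203: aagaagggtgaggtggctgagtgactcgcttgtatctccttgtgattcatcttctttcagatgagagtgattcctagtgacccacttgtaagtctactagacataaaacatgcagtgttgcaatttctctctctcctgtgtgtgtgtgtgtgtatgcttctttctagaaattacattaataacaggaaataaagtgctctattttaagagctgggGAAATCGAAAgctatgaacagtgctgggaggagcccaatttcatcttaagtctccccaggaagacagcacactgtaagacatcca
Trim21: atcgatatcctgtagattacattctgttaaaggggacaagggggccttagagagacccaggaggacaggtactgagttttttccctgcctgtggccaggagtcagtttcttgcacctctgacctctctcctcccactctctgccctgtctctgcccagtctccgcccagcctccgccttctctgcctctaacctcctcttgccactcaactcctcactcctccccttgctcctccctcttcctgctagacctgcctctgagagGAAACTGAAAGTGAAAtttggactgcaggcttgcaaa
Rsad2: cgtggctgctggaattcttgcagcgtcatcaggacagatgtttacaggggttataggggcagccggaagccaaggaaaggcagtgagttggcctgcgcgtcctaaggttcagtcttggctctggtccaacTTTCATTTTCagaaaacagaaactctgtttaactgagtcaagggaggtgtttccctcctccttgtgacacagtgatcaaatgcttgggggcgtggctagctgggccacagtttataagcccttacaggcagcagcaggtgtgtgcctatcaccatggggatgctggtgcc
Cxcl10: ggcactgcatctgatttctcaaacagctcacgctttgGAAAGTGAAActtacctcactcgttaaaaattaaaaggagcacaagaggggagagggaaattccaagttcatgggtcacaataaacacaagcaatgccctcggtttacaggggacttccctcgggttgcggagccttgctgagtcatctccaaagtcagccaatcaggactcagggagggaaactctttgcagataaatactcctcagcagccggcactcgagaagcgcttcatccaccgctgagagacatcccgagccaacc
Each window is given 5′ to 3′ on the strand of its gene. They lie at chr19:34583279-34583578 (plus strand) for Ifit3, chr5:120777610-120777909 (minus strand) for Oas3, chr4:156200769-156201068 (minus strand) for Isg15 and chr1:173942443-173942742 (minus strand) for Ifi203. The others are chr7:102565433-102565732 for Trim21, chr12:26456403-26456702 for Rsad2 and chr5:92348840-92349139 for Cxcl10, all on the minus strand. Isg15 held 3 overlapping matches, between 78 and 57 bases before its start site, and Ifit3 held 2 separate ones. The 2 overlapping matches of Trim21 lay after its start site. A match is a stretch of letters, not a measured binding site, and Ifit2, Oasl2, Parp12 and Cmpk2, which also differed much between CAR and control-CAR, had none in their windows. The windows of Cmpk2 and Rsad2, neighbours on chromosome 12, differed in this: Rsad2 held 1 match.

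The design text sets the CAR group against its control. Interferon-stimulated antiviral genes were mostly higher in CAR than in control-CAR macrophages: 29 of the 38 rose and 4 fell at an adjusted p under 0.05, while 41.9% of all tested genes rose and 36.8% fell. At a change of at least 2-fold, 19 rose and 2 fell, against 20.0% and 11.7% of all tested genes. Ifi44, in both counts of rises, was tested only because its CAR libraries reached 1 FPKM, so its rise is no separate support. The median log2 change was 0.96 over the 38 genes and 0.06 over all tested genes. Scaling by library totals, FPKM or TPM gave 32 to 35 rises and 2 falls among the 38, and 70.8% to 80.6% of all called genes were then rises, against 53.3% with TMM scaling. Markers of several cell types moved with the same libraries. All 7 tested mast cell and basophil markers, 4 of 8 progenitor markers and 4 of 5 tested fibroblast markers rose, and 1 fibroblast marker fell. Of the 7 macrophage markers 6 fell and 1 rose, and all 7 neutrophil markers fell. Their part in these changes was not tested.

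**Figure D2:**
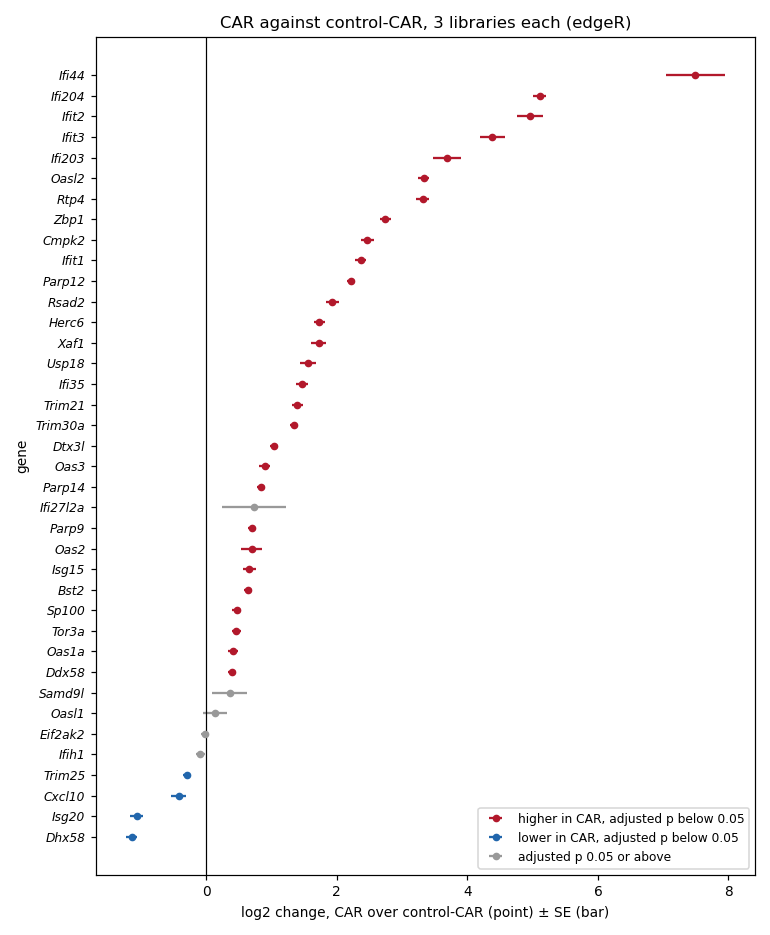
Change of each of the 38 tested antiviral genes between CAR and control-CAR macrophages, as log2 of CAR over control-CAR with its SE from edgeR (3 libraries each). Ifi44 (1 count in control-CAR), Ifi204 and Ifit2 lie farthest to the right, and 4 genes, Dhx58, Isg20, Cxcl10 and Trim25, lie to the left of 0 with an adjusted p under 0.05.

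All 3 IFIT genes, whose products bind foreign RNA and block its translation, rose. Ifit2 was at 14.7, 15.1 and 14.1 FPKM in CAR libraries, against 0.41, 0.36 and 0.37 FPKM in control-CAR libraries, a log2 change of 4.96 ± 0.20 (SE, adjusted p = 5.7e-14). No library of either group came near the other group. Ifit3 was at 10.8, 10.4 and 12.0 FPKM in CAR libraries, against 0.35, 0.40 and 0.53 FPKM in control-CAR libraries, a log2 change of 4.39 ± 0.19 (adjusted p = 2.1e-12). Ifit1, at 22.9, 22.6 and 23.3 FPKM in CAR and 3.51, 3.83 and 3.46 FPKM in control-CAR libraries, rose by 2.36 ± 0.09. The 3 genes are neighbours on chromosome 19, and Ifit genes have close copies, so part of their reads may be split between copies.

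Active oligoadenylate synthetases make short RNAs that switch on RNase L, an enzyme that cuts RNA. Of 5 tested genes of this family, which includes synthetase-like genes, 4 rose. Oasl2, a synthetase-like gene, was at 46.5, 45.4 and 48.0 FPKM in CAR libraries, against 3.35, 3.90 and 3.59 FPKM in control-CAR libraries, a log2 change of 3.33 ± 0.08 (adjusted p = 5.1e-17). The other three rises were smaller, with log2 changes of 0.89 ± 0.09 for Oas3, 0.69 ± 0.16 for Oas2 and 0.42 ± 0.08 for Oas1a, which has close copies that may share its reads. Oasl1, at 9.41, 9.69 and 9.34 FPKM in CAR and 4.52, 8.68 and 7.43 FPKM in control-CAR libraries, did not pass the test (0.13 ± 0.18, adjusted p = 0.51), and its control-CAR libraries spread more widely than its CAR libraries. Oasl1 did pass with library totals, FPKM or TPM, at log2 changes of 0.45 to 0.69.

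Isg15 encodes a ubiquitin-like protein that is joined to other proteins. It was at 284, 289 and 275 FPKM in CAR libraries, against 124, 166 and 147 FPKM in control-CAR libraries, a log2 change of 0.66 ± 0.10 (adjusted p = 6.3e-06). Usp18, whose product removes ISG15 and restrains the type I interferon receptor, rose by 1.56 ± 0.13. Herc6, which in mice encodes the main ligase that attaches ISG15, rose by 1.73 ± 0.09. So all 3 of the antiviral genes grouped here as ISG15 and its enzymes rose, the modifier itself least.

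The nucleic acid sensors did not move as one group: 4 of 7 rose, 1 fell and 2 did not pass the test. Ifi204, a HIN-200 gene whose product binds DNA, was at 54.1, 49.6 and 53.0 FPKM in CAR libraries, against 1.28, 0.96 and 1.37 FPKM in control-CAR libraries, a log2 change of 5.11 ± 0.10 (adjusted p = 7.3e-17). Its neighbour Ifi203 was at 6.62, 6.93 and 6.72 FPKM in CAR and 0.52, 0.34 and 0.33 FPKM in control-CAR libraries, a log2 change of 3.69 ± 0.21. HIN-200 genes of chromosome 1 are near-identical in places, so the split of reads among them is uncertain. Zbp1, a sensor of Z-form nucleic acid that can start inflammatory cell death, reached 177, 171 and 174 FPKM in CAR libraries, against 21.3, 24.9 and 19.8 FPKM in control-CAR libraries, a log2 change of 2.74 ± 0.09 (adjusted p = 3.4e-15).

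The 3 RIG-I-like receptors, which sense viral RNA in the cytoplasm, differed from one another. Dhx58, which encodes LGP2, was at 8.30, 8.29 and 8.85 FPKM in CAR libraries, against 13.6, 16.3 and 15.6 FPKM in control-CAR libraries, and fell by 1.14 ± 0.09 on the log2 scale (adjusted p = 6.2e-10). Ddx58, which encodes RIG-I, rose by 0.40 ± 0.06. Ifih1, which encodes MDA5, had a log2 change of -0.09 ± 0.07 and did not pass the test, and neither did Eif2ak2 at -0.02 ± 0.06. Both were called higher in CAR with library totals, FPKM or TPM, at log2 changes of 0.20 to 0.43 for Ifih1 and 0.29 to 0.57 for Eif2ak2, and the FPKM values of both lay higher in CAR without overlap. Dhx58 lay lower in CAR libraries without overlap, while 33 of the 38 antiviral genes lay higher without overlap. Among all tested genes 57.4% lay higher and 24.7% lay lower in this way.

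All 4 ADP-ribosylation genes rose. Parp12 was at 48.0, 47.6 and 48.0 FPKM in CAR libraries, against 8.09, 8.13 and 8.73 FPKM in control-CAR libraries, a log2 change of 2.22 ± 0.06 (adjusted p = 4.3e-16). Parp14, like Parp12 an enzyme that adds single ADP-ribose units, rose by 0.84 ± 0.06. Parp9 and Dtx3l, whose products act as a pair, rose by 0.69 ± 0.06 and 1.04 ± 0.06. Their genes overlap on chromosome 16 (Parp9 at 35938470 to 35972621, Dtx3l at 35926515 to 35939027, GRCm38.p6), and with the strand setting of the counting not given in the sources used here, reads from the shared stretch cannot be told apart.

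Among the TRIM ubiquitin ligases, Trim21, a receptor for antibody-coated virus in the cytoplasm, rose by 1.39 ± 0.08, and Trim30a, which in mice dampens Toll-like receptor signalling and has near-identical neighbours, rose by 1.34 ± 0.05. Trim25, which activates RIG-I, was at 44.3, 45.0 and 45.0 FPKM in CAR libraries, against 45.3, 43.2 and 45.0 FPKM in control-CAR libraries, so these levels overlapped. Its fall of 0.30 ± 0.05 on the log2 scale (adjusted p = 3.1e-05) came with TMM scaling. Trim25 was also called lower with DESeq2 and with upper quartile factors, while library totals gave a log2 change of 0.01 and TPM a change of 0.24.

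Rsad2 encodes viperin, which turns CTP into a chain terminator for viral polymerases, and Cmpk2 encodes a nucleotide kinase of mitochondria. Rsad2 was at 90.9, 88.0 and 84.0 FPKM in CAR libraries, against 17.4, 19.8 and 18.5 FPKM in control-CAR libraries, a log2 change of 1.93 ± 0.10 (adjusted p = 2.8e-12). Cmpk2 was at 21.3, 21.6 and 21.2 FPKM in CAR libraries, against 2.88, 2.95 and 3.53 FPKM in control-CAR libraries, a log2 change of 2.47 ± 0.10. Both neighbours thus lay higher without overlap, as did 57.4% of all tested genes in FPKM. Bst2 and Sp100, a component of nuclear bodies, rose by 0.64 ± 0.07 and 0.47 ± 0.07. Isg20, an exonuclease of single-stranded RNA, went the other way. It was at 15.2, 15.7 and 16.1 FPKM in CAR libraries, against 24.2, 28.6 and 27.4 FPKM in control-CAR libraries, and fell by 1.07 ± 0.10 on the log2 scale (adjusted p = 1.2e-08).

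Samd9l, which encodes an inhibitor of translation in virus-infected cells, was at 38.8, 38.1 and 38.1 FPKM in CAR libraries, against 40.1, 16.0 and 17.2 FPKM in control-CAR libraries. Control-CAR replicate 1 stood at the CAR level and the other two well below it. With all libraries the log2 change was 0.36 ± 0.27 and did not pass the test (adjusted p = 0.23), and without that replicate it was 0.88 (adjusted p = 0.0012). Samd9l also passed with FPKM or TPM, at log2 changes of at least 0.75.

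The chemokines CXCL9 and CXCL10 attract T cells through CXCR3. Cxcl10 was at 99.0, 104 and 104 FPKM in CAR libraries, against 102, 112 and 119 FPKM in control-CAR libraries, and the groups overlapped. Its fall of 0.42 ± 0.11 on the log2 scale (adjusted p = 0.0026) did not pass the test with library totals or FPKM and was above 0 with TPM. Cxcl9 had 43, 61 and 66 counts in CAR libraries (0.93, 1.27 and 1.38 FPKM), against 0 counts in all 3 control-CAR libraries. With 3 counts allowed in each library at 0, it was at least 14.7-fold higher in CAR libraries, for counting error alone.

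Of the other interferon-induced genes 5 of 6 rose, among them Ifi44, which was tested only because its CAR libraries reached 1 FPKM. Rtp4, whose product binds viral RNA, was at 67.8, 67.4 and 72.6 FPKM in CAR libraries, against 5.07, 5.76 and 5.93 FPKM in control-CAR libraries, a log2 change of 3.31 ± 0.10 (adjusted p = 8.3e-16). Xaf1, which promotes cell death, rose by 1.72 ± 0.11, Ifi35 by 1.47 ± 0.09 and Tor3a, a torsin ATPase, by 0.46 ± 0.06. Ifi44 had 300 counts in all over the CAR libraries, against 1 count over the control-CAR libraries. That is a 234-fold ratio with an exact 95% counting interval of 41.8 to 9292, at a level of only 2.15 ± 0.03 FPKM (SD, n = 3) in CAR. Ifi27l2a, at 2.43, 4.85 and 3.23 FPKM in CAR and 2, 1.41 and 1.88 FPKM in control-CAR libraries, did not pass the test (adjusted p = 0.18), but was called higher with TPM (adjusted p = 0.020). These values rest on only 7, 14 and 9 counts in CAR and 5, 4 and 5 counts in control-CAR libraries.

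**Figure D3:**
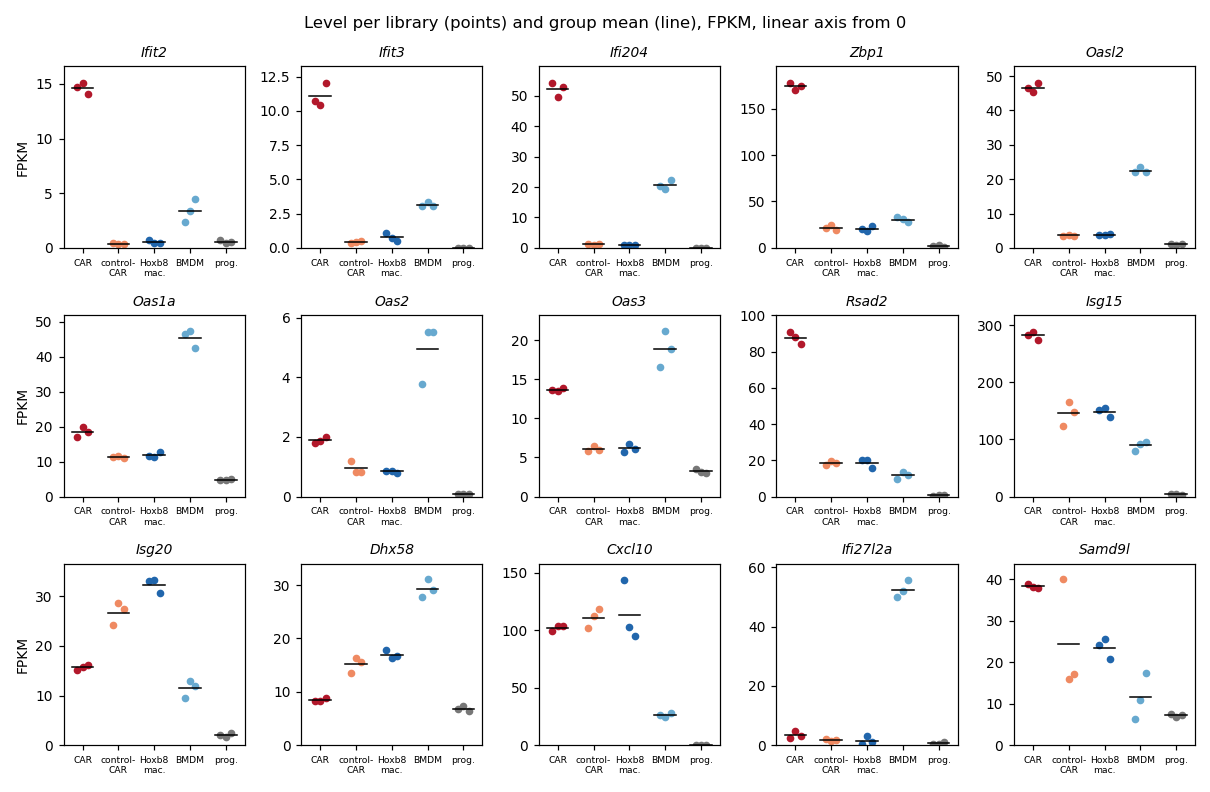
Level in FPKM (linear axes from 0) of 15 antiviral genes in each library, with a line at the mean of each group of 3. Ifit2, Ifit3, Ifi204, Zbp1, Oasl2 and Rsad2 are highest in CAR, Oas1a, Oas2, Oas3, Dhx58 and Ifi27l2a are highest in BMDM, and 1 control-CAR library of Samd9l lies with the CAR libraries.

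Other genes of the interferon pathway were described from 6 lists, of the interferons, their receptors, signalling, sensing, feedback inhibitors and further induced genes. Counts of these lists stand beside 41.9% of all tested genes that rose and 36.8% that fell, and medians beside 0.06 over all tested genes. Of 21 interferon genes, 6 were in the table and none was tested. Ifnb1, which encodes interferon beta, was at 0.85, 1.06 and 1.20 FPKM in CAR libraries, against 0, 0 and 0.12 FPKM in control-CAR libraries, with 26 counts over the CAR libraries and 1 count over the control-CAR libraries. Its ratio was 20.3, with an exact 95% counting interval of 3.34 to 833. Ifng, which encodes interferon gamma, was at most 0.06 FPKM in CAR libraries and at 0 in control-CAR libraries.

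Of the 6 interferon receptor genes none rose (0 at an unadjusted p under 0.05 as well, and 0 with DESeq2) and 4 fell, with a median log2 change of -0.50. Library totals, FPKM or TPM gave 1 to 2 rises and 3 falls. Ifngr2 was at 58.3, 57.4 and 56.4 FPKM in CAR libraries, against 109, 115 and 109 FPKM in control-CAR libraries, and fell by 1.26 ± 0.06 on the log2 scale. Ifngr1 fell by 1.02 ± 0.06, and Ifnar1 fell by 0.72 ± 0.05. Ifnar2 fell by 0.27 ± 0.05, a change above 0 with library totals, FPKM or TPM.

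Of 16 JAK, STAT and IRF genes, 9 rose and 5 fell. Library totals, FPKM or TPM gave 11 to 14 rises and 2 to 3 falls. Irf1, a transcription factor that interferon gamma induces strongly, was at 368, 362 and 375 FPKM in CAR libraries, against 26.7, 29.8 and 29.1 FPKM in control-CAR libraries, a log2 change of 3.39 ± 0.07 (adjusted p = 1.6e-17). Batf2, a partner of Irf1, was at 18.5, 20.5 and 19.9 FPKM in CAR libraries and at 0 counts in every control-CAR library. This makes it at least 109-fold higher with 3 counts allowed per library. Irf8, a factor of myeloid lineage choice, was at 8.17, 8.45 and 7.91 FPKM in CAR libraries, against 28.4, 31.0 and 32.0 FPKM in control-CAR libraries, and fell by 2.20 ± 0.09 on the log2 scale.

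Of 19 genes of nucleic acid sensing and its adaptors, 7 rose and 9 fell, shares near those of all tested genes. Library totals, FPKM or TPM gave 11 to 12 rises and 5 to 7 falls. Samhd1, which depletes nucleotides, rose by 1.08 ± 0.07, and Trex1, an exonuclease that degrades DNA in the cytoplasm, rose by 0.97 ± 0.11. The kinase gene Ikbke fell by 1.89 ± 0.08 and the adaptor gene Ticam1 fell by 1.20 ± 0.07. Among 12 feedback inhibitors 3 rose and 8 fell, with a median log2 change of -0.77, and TPM gave 4 rises and 5 falls. The 3 rises were small, 0.42 ± 0.07 for Trim27, 0.27 ± 0.08 for Socs2 and 0.19 ± 0.07 for Pias3. The log2 falls were 2.35 ± 0.06 for the phosphatase gene Ptpn1, 1.56 ± 0.07 for Cish, 1.10 ± 0.06 for Ptpn6 and 1.08 ± 0.07 for Socs3, which blocks JAK kinases. Usp18, counted above among the antiviral genes, also restrains the receptor and rose.

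Of 11 tested further synthetase and HIN-200 genes, 8 rose and 2 fell. TPM gave 9 rises and 1 fall. Ifi211 was at 45.3, 47.9 and 49.1 FPKM in CAR libraries, against 1.07, 1.39 and 1.22 FPKM in control-CAR libraries, a log2 change of 4.96 ± 0.12. Ifi207 and Ifi205 rose by 4.88 ± 0.15 and 5.27 ± 0.32. Ifi202b was at 5.69, 5.48 and 5.97 FPKM in CAR libraries and at 0 counts in control-CAR, so it was at least 38.3-fold higher with the same allowance. It was also at 0 FPKM in every Hoxb8 macrophage, BMDM and progenitor library, so it entered the test only through its CAR libraries.

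**Figure D4:**
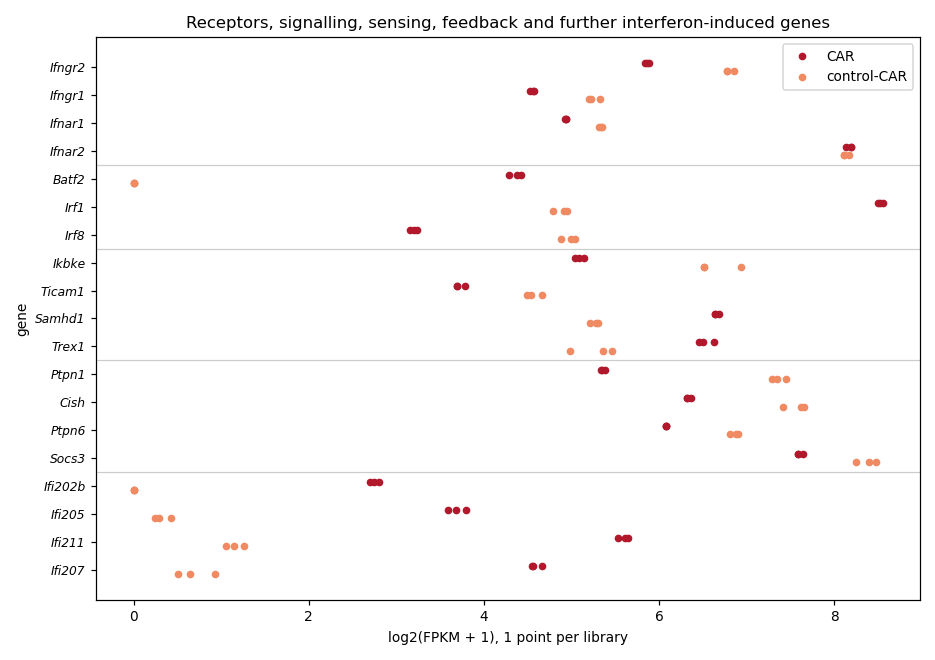
Level of the pathway genes named for CAR against control-CAR, as log2(FPKM + 1), with 1 point per library and grey lines between the gene lists. Irf1, Batf2 and the 4 HIN-200 genes at the bottom are higher in CAR, while the interferon gamma receptor genes, Irf8, Ikbke and the 4 feedback inhibitors shown are lower in CAR.

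Hoxb8 macrophages and BMDM were each set against progenitor cells, so both comparisons share the 3 progenitor libraries. In Hoxb8 macrophages 36 of the 38 antiviral genes rose and none fell, while 44.7% of all tested genes rose and 39.6% fell. The count of falls was 0 at an unadjusted p under 0.05 too, and 0 with DESeq2. Scaling by library totals or FPKM gave 27 rises and 5 falls, and scaling by TPM gave 27 rises and 7 falls. Under these the share of rises among all called genes was 24.5% to 30.3%, against 53.0% with TMM. Trim21 and Ifi35 did not pass the test. Ifit2, called higher at an adjusted p of 0.028 and at most 0.69 FPKM in all 6 libraries, did not pass without Hoxb8 macrophage replicate 1 or without progenitor replicate 2 or 3 (adjusted p = 0.052 to 0.17). Ifi27l2a did not pass without Hoxb8 macrophage replicate 2 or progenitor replicate 2, and Ifi44, with 3 counts over the Hoxb8 macrophage libraries, did not pass without Hoxb8 macrophage replicate 3. The median log2 change was 2.18 over the 38 genes and 0.06 over all tested genes, and 30 of the 38 rose at least 2-fold, against 27.4% of all tested genes. All 7 macrophage and all 7 neutrophil markers rose with the same libraries, while all 8 progenitor markers fell. Of 7 tested mast cell and basophil markers 4 fell and 1 rose. The part of all these markers in the changes was not tested.

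Cxcl10 had the largest log2 change of the 38, 10.59 ± 0.27 (adjusted p = 3.0e-17). It was at 143, 103 and 94.8 FPKM in Hoxb8 macrophage libraries, against 0.22, 0 and 0.14 FPKM in progenitor libraries, which held 5 counts in all. Isg15 was at 151, 155 and 139 FPKM in Hoxb8 macrophages, against 3.76, 3.98 and 3.07 FPKM in progenitor cells, a log2 change of 6.20 ± 0.16. Cxcl10 was thus at the limit of detection in progenitor cells, and Isg15 was low but measured there. Rsad2 was at 20.0, 20.2 and 15.5 FPKM in Hoxb8 macrophages, against 0.53, 0.64 and 0.59 FPKM in progenitor cells, a log2 change of 5.81 ± 0.16. Isg20 was at 33.2, 33.3 and 30.7 FPKM in Hoxb8 macrophages, against 2.11, 1.62 and 2.47 FPKM in progenitor cells, a log2 change of 4.87 ± 0.13. Zbp1 was at 20.6, 17.7 and 23.2 FPKM in Hoxb8 macrophages, against 1.87, 2.66 and 1.25 FPKM in progenitor cells, a log2 change of 4.63 ± 0.15. None of these 5 genes had overlapping groups, and 26.8% of all tested genes lay higher in Hoxb8 macrophages without overlap in FPKM. Ifit3 and Ifi204 had 0 counts in all progenitor libraries and were at least 13.9-fold and 20.3-fold higher in Hoxb8 macrophages with 3 counts allowed per library. Setting Ifit3 and Ifi204 at these bounds left the median of the 38 genes at 2.18.

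In BMDM 37 of the 38 rose over progenitor cells and none fell, while 46.6% of all tested genes rose and 40.7% fell. The count of falls was 0 at an unadjusted p under 0.05 too, and 0 with DESeq2, but library totals, FPKM or TPM gave 1 fall, Trim21, and 31 to 33 rises. Under these the share of rises among all called genes was 32.2% to 35.1%, against 53.4% with TMM. With TMM, Trim21 did not pass the test (adjusted p = 0.099), though it did without BMDM replicate 3 (adjusted p = 0.030). The median log2 change was 3.20, against 0.10 over all tested genes, and 32 rose at least 2-fold, against 29.4% of all tested genes. All 7 macrophage and all 7 neutrophil markers rose here, while 7 of 8 progenitor markers fell and 1 rose. Of 7 tested mast cell and basophil markers 5 rose and 2 fell. The sum of the 8 mast cell and basophil markers was lower in BMDM libraries, at 154 to 186 FPKM, against 1347 to 1457 FPKM in progenitor libraries. All 5 B cell markers rose too, and of 4 tested classical dendritic cell markers 3 rose and 1 fell. The part of all these markers was not tested.

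Ifi204 was at 20.3, 19.4 and 22.4 FPKM in BMDM libraries and at 0 counts in progenitor libraries, at least 387-fold higher. Ifit1 was at 6.60, 6.79 and 7.31 FPKM in BMDM libraries, against 0.02 FPKM, 1 count, in each progenitor library. Its ratio was 451, with an exact 95% counting interval of 154 to 2190. Both genes were near or at the limit of detection in progenitor cells. Cxcl10 was at 25.9, 24.3 and 27.6 FPKM in BMDM, against 0.22, 0 and 0.14 FPKM in progenitor cells, a log2 change of 8.30 ± 0.33. Ifi27l2a, a small interferon-induced membrane protein gene, was at 49.9, 51.9 and 55.6 FPKM in BMDM, against 0.54, 0.35 and 1.09 FPKM in progenitor cells, a log2 change of 6.79 ± 0.33. Usp18 was at 18.9, 20.5 and 20.9 FPKM in BMDM, against 0.59, 0.69 and 0.63 FPKM in progenitor cells, a log2 change of 5.64 ± 0.18. Ifit3 and Ifi44, also at 0 counts in progenitor cells, were at least 49.8-fold and 13.3-fold higher in BMDM, and the median stayed at 3.20 with the 3 genes at their bounds.

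**Figure D5:**
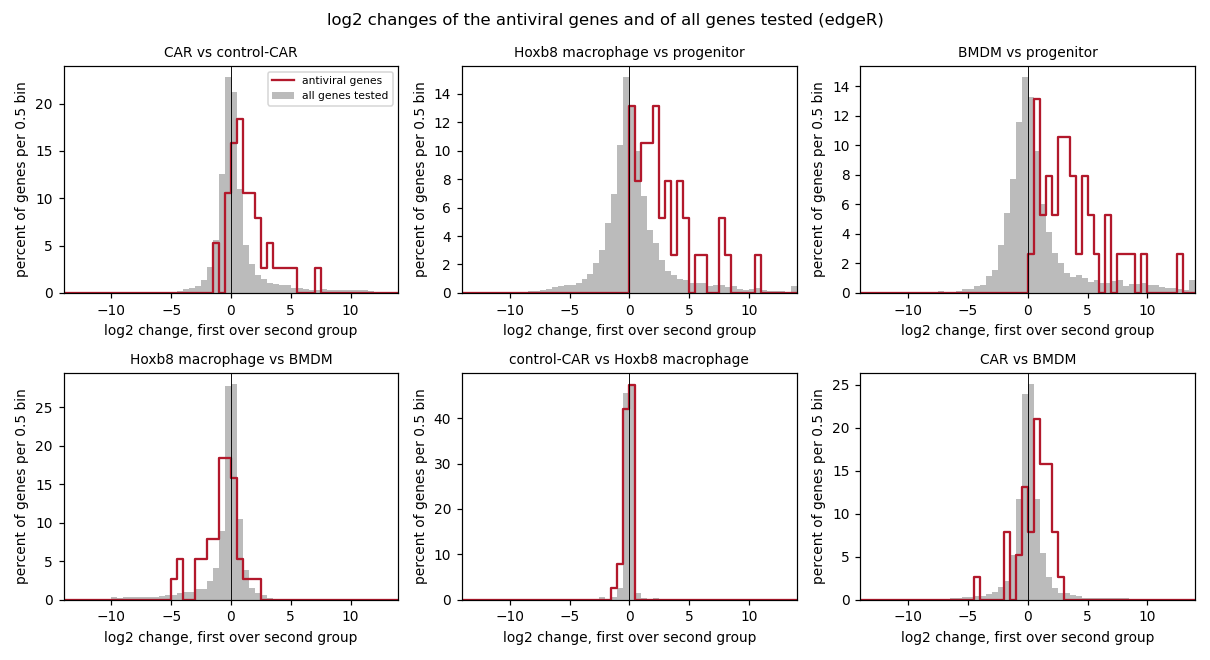
Share of genes per 0.5 step of log2 change in each of the 6 comparisons, first group over second, for all 11793 tested genes (grey bars) and for the 38 antiviral genes (red line), with changes beyond 14 placed in the outermost steps. The red line lies to the right of the grey bars in both comparisons with progenitor cells, and close to them for control-CAR against Hoxb8 macrophages.

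Hoxb8 macrophages were lower than BMDM in most antiviral genes: 23 of the 38 fell and 6 rose, while 38.3% of all tested genes fell and 32.0% rose. At 2-fold or more, 13 fell and 3 rose, against 16.2% and 7.45% of all tested genes. The median log2 change was -0.62 over the 38 genes and -0.05 over all tested genes. The 3 IFIT genes and all 5 genes of the oligoadenylate synthetase family fell. Ifi27l2a was at 0.37, 3.07 and 1.13 FPKM in Hoxb8 macrophage libraries, against 49.9, 51.9 and 55.6 FPKM in BMDM libraries, and fell by 4.84 ± 0.30 on the log2 scale (adjusted p = 5.8e-11). Ifi204 was at 0.99, 0.96 and 0.95 FPKM in Hoxb8 macrophages, against 20.3, 19.4 and 22.4 FPKM in BMDM, and fell by 4.25 ± 0.11. Oasl2 was at 3.76, 3.86 and 4.04 FPKM in Hoxb8 macrophages, against 22.0, 23.5 and 22.0 FPKM in BMDM, and fell by 2.36 ± 0.08. Each of these 3 genes and Oas1a separated the groups without overlap, and 48.5% of all tested genes lay lower in Hoxb8 macrophages in this way. Oas1a was at 11.6, 11.3 and 12.8 FPKM in Hoxb8 macrophages, against 46.6, 47.3 and 42.5 FPKM in BMDM, and fell by 1.80 ± 0.07.

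The 6 rises were Cxcl10, Isg20, Samd9l, Isg15, Rsad2 and Ifih1, of which Ifih1 was below 0 with TPM scaling. Cxcl10 was at 143, 103 and 94.8 FPKM in Hoxb8 macrophages, against 25.9, 24.3 and 27.6 FPKM in BMDM, a log2 change of 2.29 ± 0.13 (adjusted p = 1.4e-11). Isg20 rose by 1.66 ± 0.10, Samd9l by 1.21 ± 0.28, Isg15 by 0.89 ± 0.10 and Rsad2 by 0.84 ± 0.10. Macrophages of both kinds thus expressed these genes, with the synthetases and HIN-200 genes lower and Cxcl10 and Isg15 higher in Hoxb8 macrophages. Oasl1, called lower at an adjusted p of 0.038, did not pass the test without BMDM replicate 2, BMDM replicate 3 or Hoxb8 macrophage replicate 3 (adjusted p = 0.069 to 0.22). Scaling by library totals or FPKM gave 28 to 29 falls and 5 rises among the 38, and scaling by TPM gave 32 falls and 5 rises. The share of rises among all called genes was 20.2% to 31.2% with library totals, FPKM or TPM, against 45.5% with TMM. The macrophage, B cell, neutrophil, progenitor and mast cell and basophil markers above summed higher in the same BMDM libraries. So did the 6 classical dendritic cell markers, at 83.1 to 95.4 FPKM in BMDM and 9.03 to 9.54 FPKM in Hoxb8 macrophage libraries. The part of all these markers in the changes was not tested.

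Few antiviral genes differed between control-CAR and Hoxb8 macrophages, as among all tested genes: 2.63% and 2.62% were called in either direction. By edgeR, 1 of the 38 fell and none rose, while 1.90% of all tested genes fell and 0.721% rose. At an unadjusted p under 0.05, 3 rose and 4 fell, and DESeq2 called the same numbers as edgeR, 0 and 1. Isg20 had the largest change of the genes at 5 FPKM or more, -0.33 ± 0.09, and did not pass the test. The gene that fell was Bst2, at 252, 260 and 249 FPKM in control-CAR libraries, against 296, 314 and 294 FPKM in Hoxb8 macrophage libraries, with a fall of 0.32 ± 0.07 on the log2 scale (adjusted p = 0.018). It did not pass the test without control-CAR replicate 1 or 3, without Hoxb8 macrophage replicate 2, or with these 2 groups fitted alone (adjusted p = 0.055 to 0.092). The next 3 changes by size among these genes did not pass the test. They were -0.22 ± 0.12 for Rtp4, -0.20 ± 0.08 for Dhx58 and 0.18 ± 0.06 for Ddx58. Isg20 was at 24.2, 28.6 and 27.4 FPKM in control-CAR libraries, against 33.2, 33.3 and 30.7 FPKM in Hoxb8 macrophage libraries. A change that misses the threshold does not show that the groups act alike. Isg20 passed it without control-CAR replicate 2 (adjusted p = 0.042), and Ifit3, at most 1.08 FPKM in every library of both groups, passed it without Hoxb8 macrophage replicate 3 (adjusted p = 0.045). Of all called genes, 59.1% to 67.8% were rises with library totals, FPKM or TPM, against 27.5% with TMM.

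CAR macrophages were also set against BMDM, which share no library with control-CAR. Of the 38 genes 27 rose and 8 fell, while 39.2% of all tested genes rose and 37.8% fell. At 2-fold or more, 16 rose and 4 fell, against 14.2% and 12.8% of all tested genes. The median log2 change was 0.89 over the 38 genes and 0.02 over all tested genes. Library totals, FPKM or TPM gave 27 to 28 rises and 7 to 8 falls, with 62.9% to 68.0% rises among all called genes, against 50.9% with TMM. The comparison uses the CAR libraries of the first comparison and the BMDM libraries of others, so its values are not independent of theirs.

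Rsad2 was at 90.9, 88.0 and 84.0 FPKM in CAR libraries, against 9.66, 13.3 and 12.1 FPKM in BMDM libraries, a log2 change of 2.73 ± 0.10 (adjusted p = 5.8e-14). Cmpk2 was at 21.3, 21.6 and 21.2 FPKM in CAR libraries, against 3.99, 3.38 and 3.38 FPKM in BMDM libraries, a log2 change of 2.40 ± 0.09. Zbp1 was at 177, 171 and 174 FPKM in CAR libraries, against 32.8, 31.4 and 27.4 FPKM in BMDM libraries, a log2 change of 2.19 ± 0.08. These 3 genes and Rtp4 lay higher in every CAR library than in any BMDM library, as did 50.9% of all tested genes in FPKM. Rtp4 was at 67.8, 67.4 and 72.6 FPKM in CAR libraries, against 11.9, 14.1 and 14.2 FPKM in BMDM libraries, a log2 change of 2.17 ± 0.08. The 3 IFIT genes rose by 1.55 ± 0.08 to 1.92 ± 0.14.

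The 8 falls were Ifi27l2a, Dhx58, Oas2, Oas1a, Oas3, Ddx58, Trim25 and Sp100. Ifi27l2a was at 2.43, 4.85 and 3.23 FPKM in CAR libraries, against 49.9, 51.9 and 55.6 FPKM in BMDM libraries, and fell by 4.13 ± 0.25 on the log2 scale (adjusted p = 4.5e-11). Dhx58 was at 8.30, 8.29 and 8.85 FPKM in CAR libraries, against 27.7, 31.2 and 29.0 FPKM in BMDM libraries, and fell by 1.97 ± 0.08. Within the oligoadenylate synthetase family the direction differed by gene. Oas2, Oas1a and Oas3 fell by 1.57 ± 0.13, 1.51 ± 0.07 and 0.63 ± 0.08, while Oasl2, at 46.5, 45.4 and 48.0 FPKM in CAR and 22.0, 23.5 and 22.0 FPKM in BMDM libraries, rose by 0.87 ± 0.06. Oasl1 did not pass the test (-0.21 ± 0.18, adjusted p = 0.29). Isg20 rose by 0.26 ± 0.11 at an adjusted p of 0.032, and did not pass the test without any 1 of the CAR libraries or without BMDM replicate 1, nor with DESeq2 (adjusted p = 0.050 to 0.16). The mast cell and basophil markers were higher in CAR libraries, and the B cell, neutrophil, macrophage and classical dendritic cell markers higher in BMDM libraries. Their part in these changes was not tested.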

How the data were processed

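Per the labels' protocols, total RNA was extracted with TRIzol and mRNA libraries were made after oligo(dT) selection. Per the submitters' processing notes, HISAT2, Bowtie2, RSEM 1.3.1, DESeq2 1.4.5 and build GRCm38.p6 were used. For the annotation and the strandedness of counting, the value is "not given in the sources used here". The authors deposited 1 table of 17030 genes with estimated counts, FPKM (per transcript length and library total) and TPM (per length, to 1 fixed sum per library) for each library. Estimated counts were rounded. Genes at 1 FPKM in at least 3 libraries were tested with edgeR 4.0.16 (quasi-likelihood, TMM factors, all 15 libraries, 10 residual degrees of freedom) in R 4.3.3, with Benjamini-Hochberg adjustment over 11793 genes and a call at an adjusted p under 0.05. Every adjusted p in the text is from this fit or a named alternative. The SE is the log2 change over the root of the F statistic. The alternatives used DESeq2 1.42.0 or limma 3.58.1 on log2(FPKM + 1), log2(FPKM + 0.1) and log2(TPM + 1), other scalings, no filter, 2 groups alone, each library left out and a replicate block. The fit was also run on simulated data. These were drawn with the spread that edgeR estimated from the same libraries, so they cannot test that estimate. Intervals and bounds cover counting error only. The genes and lists were chosen with earlier results of these data known. Values per library are given for the 10 genes of at least 5 FPKM with the largest change between CAR and control-CAR, the 5 largest in each other comparison, those called against the majority and those at 0 in a group. Further genes were given after their values were seen. 1 gene of the signalling lists is counted but not reported here by name.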

Additional observations from a re-analysis of the deposited data

How the results depend on the processing

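Scaling decided the sign of small changes. With library totals, FPKM or TPM in place of TMM factors, the median of all tested genes moved by 0.23 to 0.45 (log2) in CAR against control-CAR. It moved by -0.62 to -0.91 in Hoxb8 macrophages against progenitor cells and by -0.58 to -0.71 in BMDM against progenitor cells. It moved by -0.11 to -0.27 in Hoxb8 macrophages against BMDM and by 0.16 to 0.23 in CAR against BMDM. Upper quartile factors moved it by -0.13 and -0.16 in the comparisons with progenitor cells. The cause of each reversal below was not tested. Values follow in the order library totals, log2(FPKM + 1), log2(FPKM + 0.1) and log2(TPM + 1), unless 1 is named.

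In CAR against control-CAR, 2 genes fell under each of the 4 scalings, and the log2 change was 0.22, 0.20, 0.21 and 0.43 for Ifih1, 0.29, 0.33, 0.35 and 0.57 for Eif2ak2, 0.012, 0.0092, 0.0094 and 0.24 for Trim25, 0.039, 0.043, 0.043 and 0.28 for Ifnar2 and, with TPM, 0.12 for Cxcl10. In Hoxb8 macrophages against progenitor cells 5, 5, 5 and 7 genes fell. The log2 change was -0.12, -0.025, -0.059 and -0.16 for Ifit2, -0.42, -0.36, -0.38 and -0.65 for Eif2ak2, -0.76, -0.66, -0.75 and -0.96 for Trim21, -0.44, -0.34, -0.43 and -0.61 for Cmpk2, -0.36, -0.29, -0.30 and -0.58 for Sp100 and -0.63, -0.61, -0.64 and -0.90 for Ifi35. With TPM it was -0.051 for Ifi203, -0.27 for Parp9 and -0.21 for Dtx3l. In BMDM against progenitor cells 1 gene fell under each of the 4. The log2 change was -0.51, -0.45, -0.51 and -0.58 for Trim21 and -0.071, -0.059, -0.073 and -0.17 for Cmpk2. Eif2ak2 was at -0.058 with library totals and -0.11 with TPM, and Ifi35 at -0.012 with either FPKM pseudocount and -0.13 with TPM.

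In Hoxb8 macrophages against BMDM the log2 change was -0.16, -0.15, -0.16 and -0.32 for Dtx3l, and -0.15, -0.16 and -0.32 for Parp9 without library totals. With TPM it was -0.038 for Ifih1, -0.24 for Parp14, -0.19 for Bst2 and -0.20 for Tor3a. In CAR against BMDM, Eif2ak2 was at 0.21 with TPM. In control-CAR against Hoxb8 macrophages 1 gene rose with library totals or TPM, 2 fell with log2(FPKM + 0.1), 0 fell with these groups alone and 0 to 2 fell when each library was left out. With each library left out, 1 to 2 genes fell at least 2-fold in CAR against control-CAR, and 0 to 1 did in control-CAR against Hoxb8 macrophages.

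Same-numbered libraries did not deviate together (correlations from -0.144 to 0.0312), and of 6 libraries 2, 4, 1, 0, 0 and 2 correlated best with their own number in the 6 comparisons. With the replicate block the counts of rises and falls were 29 and 4 (CAR, control-CAR), 36 and 0 (Hoxb8 macrophages, progenitor cells), 37 and 0 (BMDM, progenitor cells), 6 and 23 (Hoxb8 macrophages, BMDM), 0 and 1 (control-CAR, Hoxb8 macrophages) and 27 and 8 (CAR, BMDM), as without it. Depth limits Cxcl9, Ifi44, Ifnb1 and the genes at 0 in progenitor cells, where counting intervals are wide. It also limits Ifi27l2a outside BMDM, with at most 14 counts in any such library.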
